A study of Mus musculus with 6 samples.

Results

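The RNA levels of 10 genes that are best known from the stomach lining were followed in intestinal adenomas of 2 mouse models of familial adenomatous polyposis. The genes are *Lipf*, *Gkn1*, *Gkn2*, *Gkn3*, *Tff1*, *Tff2*, *Muc5ac*, *Muc6*, *Cldn18* and *Ctse*. They were selected by their symbols, out of 34866 genes in the count table, and the set was taken up because *Lipf* differs between the models. The genotype contrast of *Lipf* therefore chose the set and is given as a description without a test. All 10 genes were found, each under a single Ensembl identifier, and all 10 passed the filter on low counts that left 16536 genes for testing. *Lipf* passed that filter through the ApcMin libraries alone. The series holds 3 adenoma libraries of Apc1322T/+ mice and 3 of ApcMin/+ mice, all of strain C57BL/6J and between 100 and 120 days old. Both alleles are germline truncations of *Apc*, the brake on β-catenin, and the Apc1322T protein is the longer of them and keeps some of its β-catenin binding. Adenomas were excised from the intestine, RNA extractions of a single mouse were typically pooled for a library, and the position of the adenomas along the intestine is not given by the labels. All mice carried an *Apc* mutation, and no normal intestine or stomach was analysed here.

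The glandular stomach is lined by mucous cells that shield the wall from acid, with glands below that hold mucous neck cells, acid-secreting parietal cells and enzyme-secreting chief cells. Surface cells are known for the gel-forming mucin *Muc5ac*, the trefoil peptide *Tff1* and the gastrokines *Gkn1* and *Gkn2*, and gland mucous cells for *Muc6*, *Tff2* and *Gkn3*. *Muc6* and *Tff2* are also products of Brunner's glands in the duodenum, so that they are not strictly confined to the stomach. The normal small intestine uses *Muc2* and *Tff3* of its goblet cells in place of the gastric mucins and trefoil peptides.

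The libraries held between 23132461 and 33518324 estimated counts, and 3 counts, taken as the smallest signal such depth can show, correspond to between 0.0838 and 0.143 CPM. CPM is the gene's count per 1000000 counts of a library, whose size was adjusted by the TMM method, and the limit covers counting error only. One library stood apart by genes best known from a tissue that is not intestine. ApcMin replicate 1 had a summed level of 270.0 CPM over 9 genes of pancreatic acinar cells, against 18.1 to 30.7 CPM in the other 5 libraries. *Ctrb1*, which encodes a chymotrypsinogen, had 74.8 CPM there and at most 0.629 CPM elsewhere. *Clps*, on the same list, made up most of the sum in the other 5 libraries. It had 17.3, 22.7 and 29.3 CPM in Apc1322T and 33.0, 19.4 and 20.3 CPM in ApcMin replicates 1, 2 and 3. Its log2 fold change was 0.071, unlike that of *Ctrb1* (6.22). The median log2 fold change of the 3 pancreatic genes tested was 6.22, and 0.015 without ApcMin replicate 1.

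The labels were checked against markers of the tissue. The 10 genes listed for intestinal epithelium, among them *Cdx2*, *Vil1* and *Epcam*, were present in every library and summed to between 6585 and 12870 CPM. Several defining genes of the acid- and pepsin-secreting stomach were at or near 0. *Atp4b*, the β-subunit of the gastric proton pump, had 0 counts in 4 libraries and at most 3 counts in the others. *Pga5*, which encodes pepsinogen A, had at most 2 counts in any library. *Gast*, the gastrin gene, had a single count in ApcMin replicate 1 and 0 elsewhere. *Sox2* and *Barx1*, transcription factors of the foregut, had at most 5 and 4 counts. Neither *Atp4b* nor *Pga5* thus exceeded 3 counts in a library. Pepsinogen C was present, as *Pgc* had between 17.7 and 79.5 CPM, and so was *Atp4a*, the partner of *Atp4b*, at up to 7.24 CPM.

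Compared per kilobase of annotated exon, the 10 genes spanned more than 3 orders of magnitude. *Gkn3* was the highest, with a median over the 6 libraries of 834 CPM per kilobase, and its lowest library (405) lay above the highest library of *Ctse* (234), the next in order. *Ctse* (median 174), *Tff2* (129), *Muc6* (81.4), *Tff1* (47.5) and *Gkn1* (33.3 CPM per kilobase) followed. Each of these overlapped with its neighbour in that order, so that their ranks are not separated beyond the spread over libraries. A gap came next, as the lowest library of *Gkn1* (23.2) was above the highest of *Lipf* (12.2 CPM per kilobase). *Lipf* (median 2.85), *Cldn18* (2.42) and *Gkn2* (1.73) overlapped, and *Muc5ac* had the lowest median at 0.346 CPM per kilobase. The median of *Lipf* describes neither genotype, as it had 0.104 to 0.337 in Apc1322T and 5.35 to 12.2 CPM per kilobase in ApcMin. In Apc1322T replicates 1 and 3 *Lipf* (0.104 and 0.124) was below *Muc5ac* (0.543 and 0.183). The 2 gel-forming mucins of the stomach differed widely, with *Muc6* between 69.6 and 542 times *Muc5ac* per length within a library. Little sequence was shared with other genes, as 7 of the 10 shared 0% of their transcripts' 31-base words with another gene of GENCODE M21, and *Tff1*, *Ctse* and *Muc5ac* shared 0.143%, 0.221% and 0.286%.

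**Figure D1:**
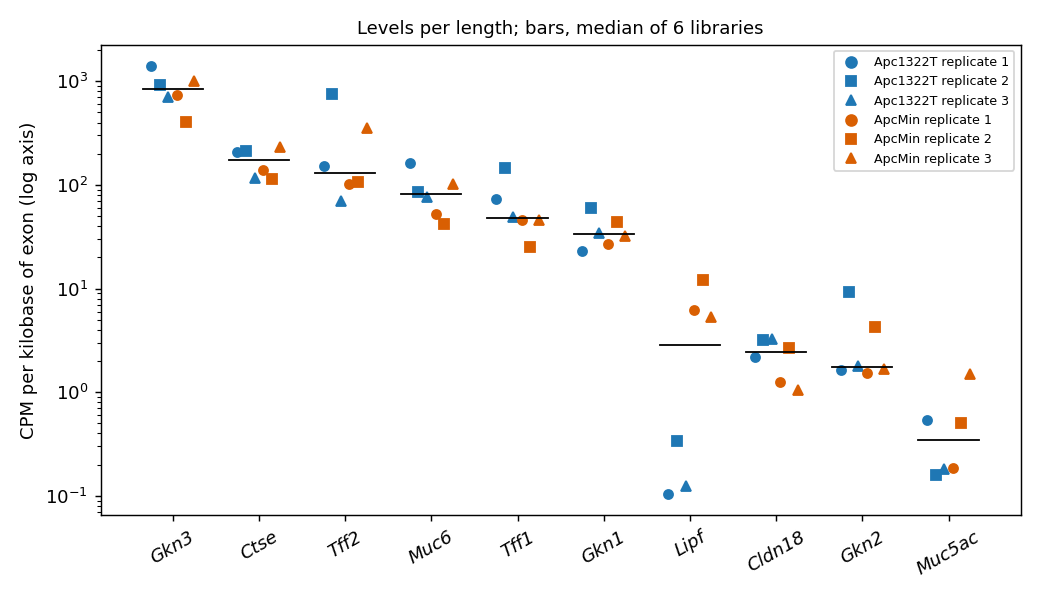
CPM per kilobase of exon (log axis) of each gastric epithelial gene in each library, ordered by the median over the 6 libraries (bars); blue marks Apc1322T and orange ApcMin, and the symbol gives the replicate. *Gkn3* sits alone at the top (405 to 1404), and the genotypes are widest apart for *Lipf*, at 0.104 to 0.337 and 5.35 to 12.2 CPM per kilobase.

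*Lipf* encodes gastric lipase, a secreted enzyme that begins the digestion of dietary fat in acid. The gene (ENSMUSG00000024768) lies on chromosome 19 of GRCm38, from 33961187 to 33976810, in a cluster of acid lipase genes, 31.5 kb from *Lipk*. Its estimated counts were 4, 10 and 4 in Apc1322T replicates 1, 2 and 3 and 312, 436 and 239 in ApcMin replicates 1, 2 and 3. In CPM this was 0.147, 0.475 and 0.175 against 8.71, 17.1 and 7.56. The genotypes did not overlap, the lowest ApcMin library was far above the highest Apc1322T library, and in both genotypes replicate 2 was the highest. The fitted log2 fold change (ApcMin over Apc1322T, ± standard error, as for all genes that follow) was 5.40 ± 0.56. Leaving out any single library gave values between 4.95 and 6.08, the highest value being that without Apc1322T replicate 2. Without ApcMin replicate 1, the library high in pancreatic genes, the log2 fold change was 5.55. *Lipa*, which encodes the lysosomal acid lipase of the same family and is used by many cell types, had between 131 and 179 CPM in Apc1322T and between 85.2 and 116 CPM in ApcMin adenomas. It thus had the opposite direction to *Lipf* (log2 fold change -0.63 ± 0.17, edgeR adjusted p = 0.279). Of the other lipase genes listed from chromosome 19, *Lipo3* had a similar level in all 6 libraries, between 10.6 and 12.5 CPM (log2 fold change 0.042 ± 0.12, edgeR adjusted p = 0.886), and its annotated span covers *Lipo2*. *Lipk* had at most 1.10 and *Lipo2* at most 0.525 CPM, *Lipn*, *Lipo5* and *Lipm* had at most 1, 1 and 7 counts, and *Lipo1* and *Lipo4* had 0 counts. Over all 12 genes listed as chromosomal neighbours of the same families, 6 were tested. In ApcMin adenomas 1 was higher and 5 were lower, with a median of -0.53 and 0 past the threshold, an adjusted p under 0.01. In this test 0 of all 16536 genes passed, so that a count of 0 here and in the lists below is not particular to them.

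The 300 bases around the annotated start of *Lipf* are shown because it is the gene with the wide difference between the models. The window is chr19:33960998-33961297 of GRCm38.p6, plus strand, from 250 bases before to 50 after the start, from RefSeq. The GENCODE M21 start of the gene (33961187) lies within the window, before the RefSeq start. RefSeq windows were matched for 6 of the 10 genes (*Lipf*, *Gkn1*, *Gkn2*, *Gkn3*, *Muc6* and *Cldn18*), and not for *Tff1*, *Tff2*, *Muc5ac* and *Ctse*. Capitals mark matches, on either strand, to TATAAA (the TATA box), GATAA (the core of GATA factor motifs), AACAAT (the core of SOX motifs) and CTTTGAT (the core of TCF/LEF motifs, through which β-catenin acts).
Lipf: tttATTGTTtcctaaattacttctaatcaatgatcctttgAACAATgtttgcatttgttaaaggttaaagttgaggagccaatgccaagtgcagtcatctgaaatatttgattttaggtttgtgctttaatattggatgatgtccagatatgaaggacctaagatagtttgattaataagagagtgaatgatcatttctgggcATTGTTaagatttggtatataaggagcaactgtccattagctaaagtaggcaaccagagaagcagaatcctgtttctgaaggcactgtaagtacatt
The window held 3 matches to AACAAT and none to the exact letters of the other motifs. It did hold TATAAG and CTTTGAA, which differ from TATAAA and CTTTGAT in the last letter alone. Such variants were not searched for in any window. A count of none therefore does not show that a promoter lacks a TATA box or a TCF/LEF site. A match to AACAAT is found in 10.7% of all 32851 RefSeq promoter windows of this length, and the windows of the other 5 genes held none. GATAA is found in 25.4% of all windows, TATAAA in 13.6% and CTTTGAT in 3.73%. Matches are a property of the letters and say nothing about which factor binds.

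The 5 tested genes nearest to *Lipf* in their pattern over the 6 libraries, by Euclidean distance between log2 CPM profiles that were each centred on their own mean, were *Igkv8-18*, *Gm45647*, *Gpx5*, *Otof* and *Vstm2b* (distances from 1.53 to 2.73). None of them is on the lists of stomach genes used here. Those lists hold few of the 16536 genes tested, so that nothing is read from this absence. The profiles were not scaled, so that only genes with a similarly wide difference between the genotypes could be near. *Lipf* was taken up for that difference. Nothing is therefore read from the distance of the nearest other gastric epithelial gene (5.92). *Gpx5*, a glutathione peroxidase known from the epididymis, had 2.46, 2.85 and 0.350 CPM in Apc1322T and 21.4, 40.8 and 69.2 CPM in ApcMin adenomas. *Otof*, which encodes a calcium sensor of inner hair cells, had 1.21, 0.523 and 0.131 CPM against 9.89, 16.2 and 26.3 CPM. Both were highest in ApcMin replicate 3, unlike *Lipf*, which was highest in ApcMin replicate 2. *Igkv8-18*, an immunoglobulin light chain segment, was at 0 counts in all Apc1322T libraries and at 26 to 49 counts in the ApcMin libraries.

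The gastrokines are small secreted proteins of gastric mucous cells, and their 3 genes lie together on chromosome 6 of GRCm38, *Gkn1* from 87345650 to 87350942, *Gkn2* from 87373357 to 87379497 and *Gkn3* from 87383256 to 87388935. Their levels did not follow their closeness. *Gkn2* and *Gkn3* are 3.76 kb apart, and per length *Gkn3* was between 94.4 and 862 times *Gkn2* within a library. *Gkn3* had 1202, 797 and 601 CPM in Apc1322T replicates 1, 2 and 3 and 631, 347 and 866 CPM in ApcMin replicates 1, 2 and 3. The genotypes overlapped, and the lowest library was ApcMin replicate 2. *Gkn1* had 29.0, 74.6 and 43.0 CPM in Apc1322T and 33.8, 54.5 and 40.2 CPM in ApcMin adenomas. *Gkn2* had 1.28, 7.22 and 1.40 CPM in Apc1322T and 1.20, 3.38 and 1.33 CPM in ApcMin adenomas. For both *Gkn1* and *Gkn2*, replicate 2 was the highest library of each genotype, the same libraries in which *Lipf* was highest, whereas *Gkn3* was lowest in ApcMin replicate 2. Within Apc1322T the order of *Lipf* rests on 10 counts against 4 and 4, so that little can be read from it. The log2 fold changes of *Gkn1*, *Gkn2* and *Gkn3* were -0.19 ± 0.36, -0.75 ± 0.80 and -0.50 ± 0.39, and their edgeR adjusted p, from the quasi-likelihood test over all genes, were 0.817, 0.661 and 0.549. *Gkn1* and *Gkn2* changed direction, to 0.25 and 0.55, without Apc1322T replicate 2.

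The RefSeq windows of the gastrokine genes are shown because these neighbours differ so widely in level. They span chr6:87350866-87351165 (minus strand) for *Gkn1*, chr6:87373115-87373414 (plus strand) for *Gkn2* and chr6:87388886-87389185 (minus strand) for *Gkn3* of GRCm38.p6, with capitals as above.
Gkn1: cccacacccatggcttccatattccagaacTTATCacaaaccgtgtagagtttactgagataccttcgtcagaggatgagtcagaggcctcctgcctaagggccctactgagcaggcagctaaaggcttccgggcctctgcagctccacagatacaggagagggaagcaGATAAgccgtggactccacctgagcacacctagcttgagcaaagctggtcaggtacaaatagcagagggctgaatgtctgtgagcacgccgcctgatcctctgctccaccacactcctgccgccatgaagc
Gkn2: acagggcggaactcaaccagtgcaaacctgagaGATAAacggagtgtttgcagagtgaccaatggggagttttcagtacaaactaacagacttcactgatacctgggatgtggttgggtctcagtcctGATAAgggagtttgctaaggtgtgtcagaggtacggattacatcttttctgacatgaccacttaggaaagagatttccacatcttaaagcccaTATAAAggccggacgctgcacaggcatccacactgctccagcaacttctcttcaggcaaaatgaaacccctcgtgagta
Gkn3: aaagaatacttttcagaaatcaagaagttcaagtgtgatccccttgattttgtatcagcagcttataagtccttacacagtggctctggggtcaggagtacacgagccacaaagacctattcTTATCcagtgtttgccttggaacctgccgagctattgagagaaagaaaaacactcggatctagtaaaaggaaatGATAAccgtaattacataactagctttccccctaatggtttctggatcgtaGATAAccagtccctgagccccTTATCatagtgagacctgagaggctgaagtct
*Gkn3*, the most abundant of the 10 genes per length, held 4 matches to GATAA, and *Gkn1* and *Gkn2* held 2 each. *Gkn2*, with the lowest level of the 3, was alone among them in a match to TATAAA. *Muc6* and 1 of the 2 windows of *Cldn18* held 2 matches to GATAA each, and the other *Cldn18* window held 1 to CTTTGAT. A match to GATAA was thus found for 5 of the 6 genes with a window, all but *Lipf*, though 1 of the 2 windows of *Cldn18* held none. It is found in 25.4% of all windows, a share counted per window and not per gene. The share of all windows with 2 or more matches was not counted. A relation between matches and levels was not tested.

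*Tff1* and *Tff2* encode trefoil peptides, small secreted proteins that bind mucus and help in the repair of the epithelium. They lie on chromosome 17 of GRCm38, *Tff1* from 31161395 to 31165277 and *Tff2* from 31141049 to 31144282, with the goblet cell peptide *Tff3* 11.4 kb beyond *Tff2*. *Tff1* had 50.8, 102 and 34.2 CPM in Apc1322T replicates 1, 2 and 3 and 32.4, 17.7 and 32.6 CPM in ApcMin replicates 1, 2 and 3. Every ApcMin library was below every Apc1322T library, though by a small margin (34.2 against 32.6 CPM). Its log2 fold change of -1.17 ± 0.45 (unadjusted p = 0.0382, edgeR adjusted p = 0.314) did not pass the threshold, and leaving out single libraries gave -1.47 to -0.63. *Tff2* had 88.3, 437 and 41.3 CPM in Apc1322T and 59.0, 62.4 and 207 CPM in ApcMin adenomas. The spread within Apc1322T adenomas alone was 10.6-fold, with replicate 2 far above the other libraries, and the genotypes overlapped. The log2 fold change of *Tff2* (-0.79 ± 0.95, edgeR adjusted p = 0.700) became 0.74 without Apc1322T replicate 2. *Tff3*, the intestinal member, had between 447 and 953 CPM and exceeded *Tff1* between 13.4 and 47.0 times per length, and *Tff2* between 2.56 and 23.9 times. Its own log2 fold change was -0.54 ± 0.23 (edgeR adjusted p = 0.330).

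The gastric mucin genes share a cluster on chromosome 7 of GRCm38 with the intestinal *Muc2*. *Muc6* (141633456 to 141655319) and *Muc5ac* (141788972 to 141819231) flank *Muc2* at distances of 35.02 and 34.28 kb. *Muc6*, the mucin of gastric and Brunner's glands, had 1521, 807 and 717 CPM in Apc1322T replicates 1, 2 and 3 and 489, 392 and 966 CPM in ApcMin replicates 1, 2 and 3. Both genotypes held a high library, Apc1322T replicate 1 and ApcMin replicate 3, and overlapped. In these same 2 libraries *Muc6* exceeded *Muc2* per length, with *Muc2* at 0.777 and 0.771 times *Muc6*, and in the other 4 *Muc2* was between 2.62 and 3.57 times *Muc6*. *Muc5ac*, the surface mucin, had 5.83, 1.71 and 1.97 CPM in Apc1322T and 2.01, 5.43 and 15.9 CPM in ApcMin adenomas. ApcMin replicate 3 was the highest library, and without it the log2 fold change of *Muc5ac* fell from 1.29 ± 0.84 (edgeR adjusted p = 0.479) to 0.21. That of *Muc6* was -0.72 ± 0.44 (edgeR adjusted p = 0.446). *Muc5b*, the remaining gene of the cluster and a mucin of airways and salivary glands, had at most 4 counts in any library.

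*Cldn18* encodes a tight junction claudin with a stomach and a lung form, which a count per gene does not separate, and lies on chromosome 9 of GRCm38 (99689461 to 99717267). It had 9.69, 14.3 and 14.6 CPM in Apc1322T and 5.59, 11.8 and 4.71 CPM in ApcMin adenomas. ApcMin replicate 2 lay among the Apc1322T libraries, and the other ApcMin libraries lay below all of them. The log2 fold change was -0.81 ± 0.38 (edgeR adjusted p = 0.364) and lay between -1.32 and -0.57 when a library was left out. *Ctse* encodes cathepsin E, an aspartic protease kept inside gastric mucous and immune cells, and lies on chromosome 1 (131638306 to 131675505). It was the steadiest of the 10 genes, with 663, 681 and 368 CPM in Apc1322T and 442, 357 and 743 CPM in ApcMin adenomas, a range of 2.08-fold. Its log2 fold change was -0.15 ± 0.35 (edgeR adjusted p = 0.850), and turned to 0.053 without ApcMin replicate 2.

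**Figure D2:**
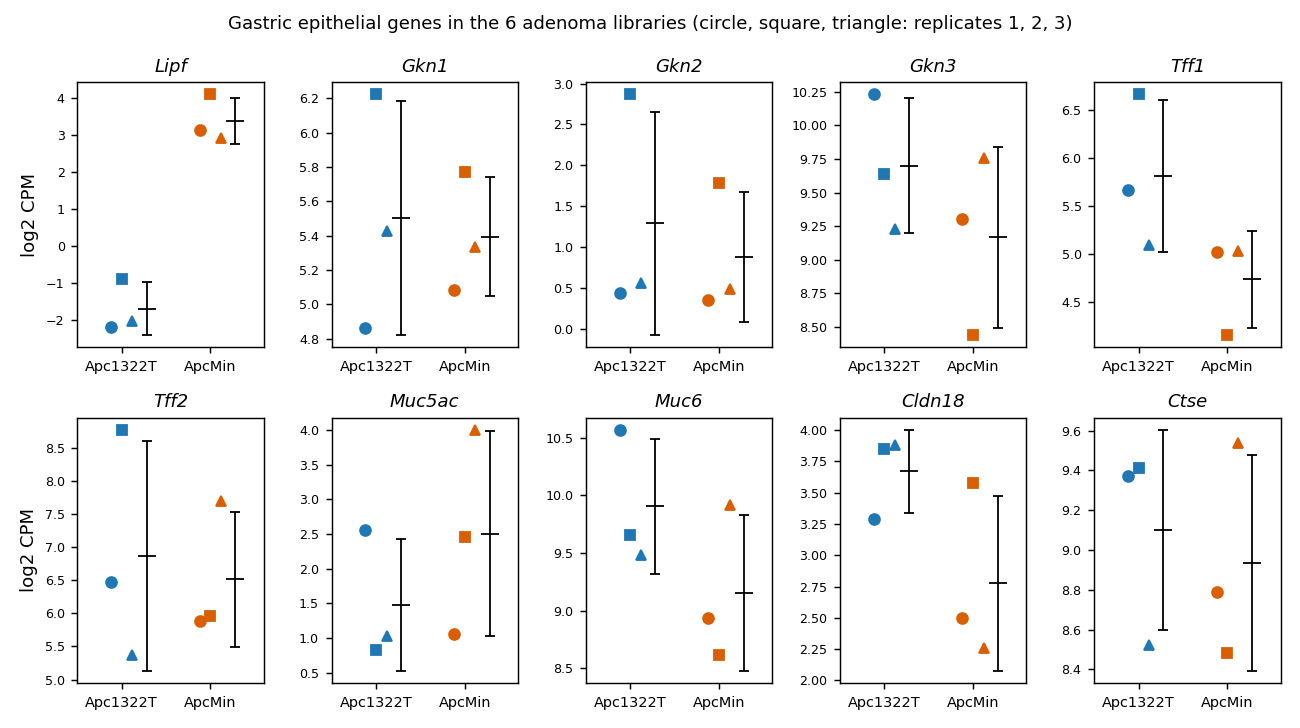
Log2 CPM (prior count 2) of the 10 gastric epithelial genes in each library, by genotype, with the mean and SD of the 3 libraries beside them (black); the vertical scale differs between panels. *Lipf* and, by a small margin, *Tff1* (lowest Apc1322T library 5.10, highest ApcMin library 5.03) are the genes whose genotypes do not overlap.

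Between the genotypes, 0 of the 9 genes other than *Lipf* passed an adjusted p under 0.01 in edgeR's quasi-likelihood test, where 0% of all 16536 genes did. At an unadjusted p under 0.05 there was 1 of these 9, namely *Tff1*, beside 15.1% of all genes tested. DESeq2's Wald test, the tool named by the study, called 0 of these 9 genes at an adjusted p under 0.01, where it called 1.11% of the 17503 genes to which it gave an adjusted p. It called *Lipf*, for which the set was taken up and from which nothing is read. Of the 9, *Tff1* had groups that did not overlap with ApcMin lower, which holds for 9.96% of all genes, and none had ApcMin higher without overlap, which holds for 11.0%. *Lipf* did, but as its difference chose the set, nothing is read from that.

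Most of the other genes had values below 0. Of the 9 genes, 8 had a log2 fold change below 0 and *Muc5ac* had one above 0, where 47.6% of all genes were below 0. Their median was -0.72, against 0.017 over all genes tested. The genes listed for intestinal epithelium had values below 0 in 10 of 10 cases, from -0.60 to -0.11 with a median of -0.45, and 0 of them passed the threshold. *Epcam*, a surface protein of epithelial cells, had 2637, 2723 and 2697 CPM in Apc1322T and 2103, 2226 and 1799 CPM in ApcMin adenomas (log2 fold change -0.39 ± 0.12, edgeR adjusted p = 0.286). The part of these epithelial values in those of the gastric genes was not tested, and in bulk tissue fewer cells of a type cannot be told apart from less RNA per cell. Over all 10 genes the median was -0.61, and it was 0.12 without Apc1322T replicate 2. Under upper quartile scaling it was -0.56, and all 8 values stayed below 0. Of the 8, *Gkn1*, *Gkn2*, *Tff2* and *Ctse* lay above 0 when 1 library was left out, as given for each.

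**Figure D3:**
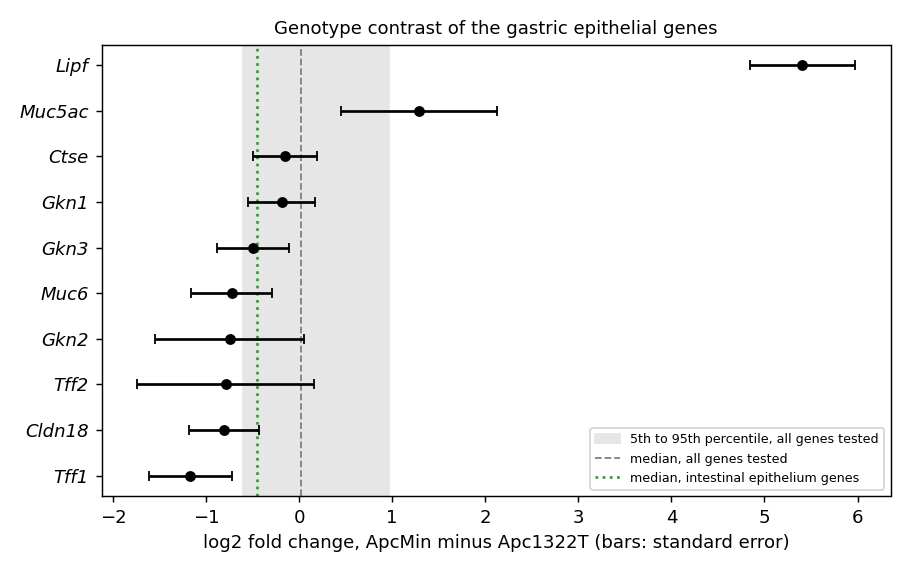
Log2 fold change (ApcMin minus Apc1322T) of each gastric epithelial gene with its standard error, over the range of the central 90% of all genes tested (grey, -0.60 to 0.97), their median (dashed, 0.017) and the median of the intestinal epithelium genes (dotted, -0.45). *Lipf* at 5.40 lies far to the right, and 8 genes lie between -1.17 and -0.15.

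The spread among libraries of a genotype was wide for these genes. Their SD of log2 CPM within genotypes was between 0.52 and 1.42, against a median of 0.22 over all genes tested, and all 10 lay between the 81.8th and the 98.0th percentile of that distribution. *Tff2* (1.42), *Muc5ac* (1.24) and *Gkn2* (1.12) varied most. A wide spread was not particular to the 10 genes, whose median SD was 0.65. That of the parietal, chief and gastric endocrine (0.77), proximal (0.85), distal (1.48) and pancreatic (3.01) lists was larger. It was smaller for squamous (0.56), other stomach (0.44), chromosomal neighbour (0.38) and intestinal epithelium genes (0.31). The summed level of the 10 genes was 3571, 2922 and 1822 CPM in Apc1322T replicates 1, 2 and 3 and 1705, 1268 and 2883 CPM in ApcMin replicates 1, 2 and 3. The genotypes overlapped, with *Gkn3*, *Muc6* and *Ctse* making up most of the sum.

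Markers of position along the small intestine differed between the same libraries. *Cybrd1*, the iron reductase of the duodenal brush border, had 1110, 747 and 143 CPM in Apc1322T replicates 1, 2 and 3 and 677, 106 and 1654 CPM in ApcMin replicates 1, 2 and 3. *Pdx1*, a transcription factor of pancreas, antrum and duodenum and chosen after its values were seen, had 28.7, 38.9 and 11.3 CPM against 28.1, 4.21 and 37.2 CPM. *Cybrd1* was highest in Apc1322T replicate 1 and ApcMin replicate 3, the libraries with the highest *Muc6* and *Gkn3*. It was lowest in ApcMin replicate 2, the library with the lowest *Gkn3*, *Muc6*, *Tff1* and *Ctse*. *Pgc*, the pepsinogen of gastric glands, had 41.9, 43.6 and 17.7 CPM in Apc1322T and 31.5, 18.8 and 79.5 CPM in ApcMin adenomas. Like *Cybrd1*, it was highest in ApcMin replicate 3. Within Apc1322T its highest library was replicate 2, unlike *Cybrd1*, and its lowest library of all was Apc1322T replicate 3. The other proximal genes differed less, *Gata4* 1.53-fold and *Onecut2* 1.28-fold among the ApcMin libraries. Of the 4 proximal genes 1 was higher and 3 lower in ApcMin adenomas, with 0 past the threshold, and their sums ran from 417 to 1397 CPM in Apc1322T and from 325 to 1982 CPM in ApcMin adenomas.

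Distal markers had another pattern. *Cubn*, a receptor for the uptake of vitamin B12 in the ileum, was lowest where *Cybrd1* was highest, at 12.2 CPM in Apc1322T replicate 1 and 6.64 CPM in ApcMin replicate 3, and had between 43.2 and 61.8 CPM in the other libraries. *Fabp6*, the ileal bile acid binding protein, had 127 and 82.8 CPM in ApcMin replicates 1 and 2 and at most 0.980 CPM elsewhere. The 5 distal genes summed to between 73.0 and 210 CPM in Apc1322T and between 65.7 and 366 CPM in ApcMin adenomas, and 3 were higher and 2 lower in ApcMin adenomas, with 0 past the threshold. Like *Lipf*, *Fabp6* was higher in ApcMin without overlap, with a log2 fold change of 6.95 ± 1.72 (edgeR adjusted p = 0.273). In ApcMin replicate 3 its margin was small, at 0.980 CPM against at most 0.618 CPM in Apc1322T. The part of intestinal position in the values of the gastric genes was not tested.

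**Figure D4:**
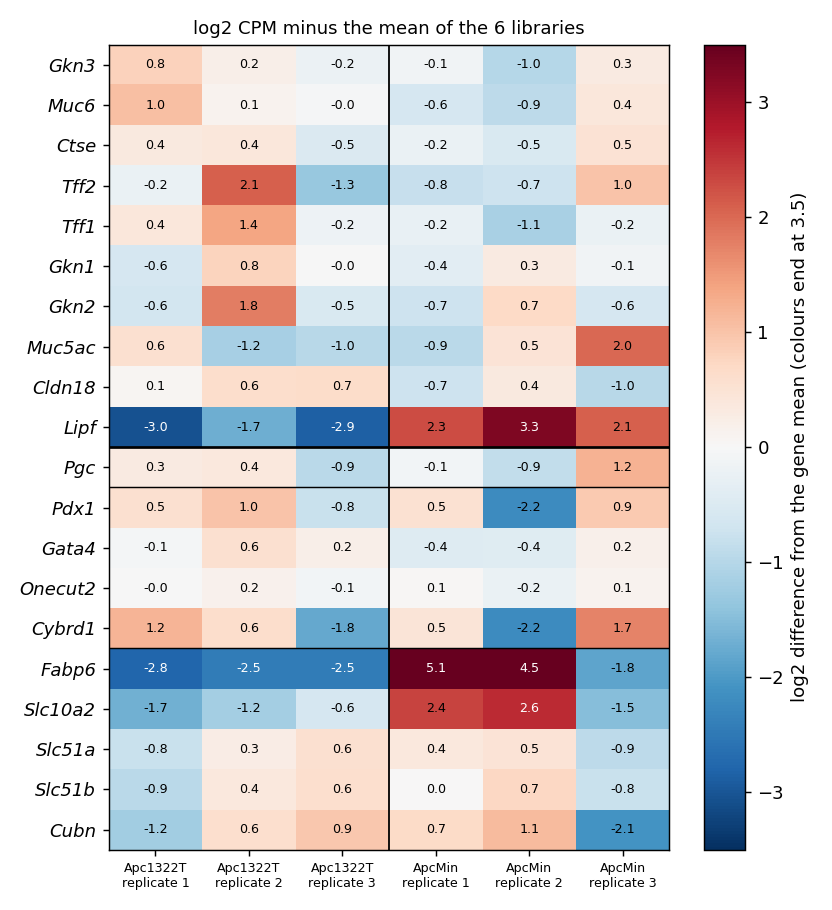
Log2 CPM of each gene minus its mean over the 6 libraries, for the 10 gastric epithelial genes (above the thick line), *Pgc*, 4 proximal and 5 distal genes of the small intestine; red is above and blue below the gene's mean. *Gkn3*, *Muc6*, *Ctse* and *Cybrd1* are all lowest in ApcMin replicate 2 (*Muc6* -0.91, *Ctse* -0.54 and *Cybrd1* -2.21), and *Lipf* is positive in the 3 ApcMin libraries (2.08 to 3.25).

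Other genes of the stomach were read from 2 lists. Of 12 further genes of stomach mucosa and stomach transcription factors, 9 passed the filter. In ApcMin adenomas 2 had higher and 7 lower values, and 0 passed the threshold. Their median was -0.55, and it was -0.28 with DESeq2 and -0.26 without the filter on low counts. *Anxa10*, an annexin of gastric mucosa, was the most abundant, with 276, 422 and 266 CPM in Apc1322T and 150, 143 and 267 CPM in ApcMin adenomas. *Aqp5*, a water channel of pyloric glands, had between 70.4 and 119 CPM in Apc1322T and between 45.5 and 87.5 CPM in ApcMin adenomas. *Muc1*, a membrane mucin, had the largest change, 1.94 ± 0.92 (edgeR adjusted p = 0.371), and 23.0 CPM in ApcMin replicate 3 against 1.22 CPM in replicate 2. The list's sum was between 515 and 705 CPM in Apc1322T and between 315 and 480 CPM in ApcMin adenomas, without overlap.

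A pair of genes in this list, named after their values were seen, differed in opposite directions without overlap. *A4gnt*, the enzyme that adds the terminal sugar typical of the gland mucin Muc6, had 52.4, 29.4 and 19.8 CPM in Apc1322T and 9.92, 8.26 and 12.1 CPM in ApcMin adenomas. The log2 fold change was -1.75 ± 0.37 (edgeR adjusted p = 0.257). *Sox21*, a SOX transcription factor, had 9.10, 8.55 and 7.88 CPM in Apc1322T and 20.0, 25.2 and 33.6 CPM in ApcMin adenomas (log2 fold change 1.63 ± 0.20, edgeR adjusted p = 0.257). Without overlap there were 1 higher and 3 lower genes of the 9, next to the 11.0% and 9.96% of all genes given above.

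Of 12 genes of parietal, chief and gastric endocrine cells 6 could be tested, with 4 higher and 2 lower in ApcMin adenomas and 0 past the threshold. Their median was 0.29, and -0.13 without ApcMin replicate 3. *Atp4a*, the catalytic subunit of the proton pump, had 2.35, 1.52 and 0.788 CPM in Apc1322T and 2.26, 5.78 and 7.24 CPM in ApcMin adenomas (log2 fold change 1.70 ± 0.55, edgeR adjusted p = 0.287). It overlapped between the genotypes, and its partner *Atp4b* was at or below 3 counts in the same libraries. *Cblif*, the gene of gastric intrinsic factor, annotated as *Gif*, had 2.94, 1.38 and 2.10 CPM against 0.196, 0.590 and 1.30 CPM (-1.63 ± 0.66, edgeR adjusted p = 0.322). *Sst*, which the intestine also expresses, had between 2.75 and 5.85 CPM. The list summed to between 33.3 and 62.2 CPM in Apc1322T and between 35.1 and 104 CPM in ApcMin adenomas, with *Pgc* as its main component.

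The mouse stomach also has a squamous forestomach, so that stratified epithelium was looked at beside *Lipf*. Of 17 squamous genes 13 were tested, and 11 were higher and 2 lower in ApcMin adenomas with 0 past an adjusted p of 0.01. Their median was 0.75, and 1.21 with DESeq2 or without the filter on low counts. The list was chosen with earlier results of these data known, so that its direction is not independent evidence. *Krt14*, a keratin of basal cells, had 3.16, 3.56 and 4.73 CPM in Apc1322T and 21.2, 21.8 and 22.2 CPM in ApcMin adenomas (log2 fold change 2.51 ± 0.18, edgeR adjusted p = 0.0485). *Sprr3*, a protein of the cornified envelope, had the largest fitted change of the list, with at most 3 counts in Apc1322T and 21 to 47 counts in ApcMin adenomas. Like *Lipf*, *Sprr3* passed the filter on low counts through the ApcMin libraries alone. It could thus be counted only among the higher genes, and nothing is read from its direction. Also without overlap, *Krt6a* had between 0.618 and 1.17 CPM in Apc1322T and between 5.31 and 12.5 CPM in ApcMin adenomas (log2 fold change 3.41 ± 0.42, edgeR adjusted p = 0.257). *Krt4* had between 0.713 and 1.27 CPM against 4.55 to 7.63 CPM (2.61 ± 0.33, edgeR adjusted p = 0.257), and *Dsc3*, a desmosomal cadherin, 0.855 to 3.999 against 4.38 to 35.4 CPM (2.95 ± 1.00, edgeR adjusted p = 0.300). Of the 13 tested genes 6 were higher and 1 was lower without overlap, beside 11.0% and 9.96% of all genes. *Sprr3* is among the 6, and so is *Lor*, by a small margin (0.624 against 0.642 CPM). *Lor* had 17, 6 and 5 counts in Apc1322T replicates 1, 2 and 3 and passed the filter mainly through the ApcMin libraries. Nothing is therefore read from the count of 6 or from that of the 11 higher genes. The gene that was lower without overlap was *Dsg3*, another desmosomal cadherin. It had 2.42 to 3.02 CPM in Apc1322T and 1.005 to 2.055 CPM in ApcMin adenomas (-0.81 ± 0.33, edgeR adjusted p = 0.321). *Sprr1a* was lower with overlap (-0.48 ± 0.22, edgeR adjusted p = 0.357). *Krt13*, *Krt15*, *Ivl*, *Sbsn* and *Pkp1* were higher with overlap, by log2 fold changes from 0.31 to 0.75. Some defining genes were near 0 in both genotypes, *Krt5* and *Trp63* at no more than 14 and 13 counts and *Krtdap* at 0 counts in all libraries. *Lor*, which encodes loricrin, had between 0.219 and 0.624 CPM in Apc1322T and between 0.642 and 1.26 CPM in ApcMin adenomas. The list summed to between 123 and 140 CPM in Apc1322T and between 169 and 199 CPM in ApcMin adenomas, mostly from *Pkp1* and *Sprr1a*, which are not restricted to squamous tissue. The part of squamous tissue in the level of *Lipf* was not tested.

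**Figure D5:**
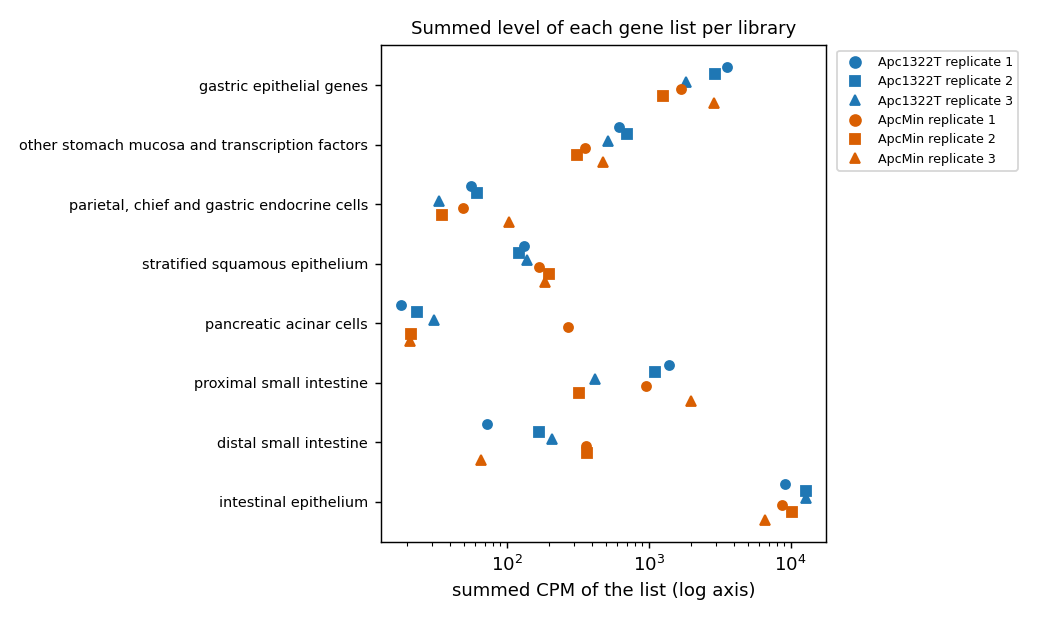
Summed CPM (log axis) of the gastric epithelial genes and of 7 marker lists in each library; colour gives the genotype and symbol the replicate. The pancreatic list is at 270.0 CPM in ApcMin replicate 1 and at most 30.7 CPM elsewhere, and the intestinal epithelium list is at 6585 CPM or more in every library.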

How the data were processed

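Poly(A) RNA of 6 adenoma libraries, 3 per genotype, was sequenced as strand-specific single-end reads. Per the labels and the study's methods, the authors ran Salmon on the mouse transcriptome (GRCm38) and deposited its estimated counts summed over each gene, without normalization for depth or length. Of the deposited values, 33.4% were not whole numbers. Symbols, coordinates and exon lengths were taken from GENCODE M21 (GRCm38), which matched 34652 of 34866 genes.

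Estimated counts were rounded, genes were filtered with filterByExpr (minimum count 10, minimum total 15), and genotypes were compared with edgeR 4.0.16 (TMM, robust quasi-likelihood test, Benjamini-Hochberg over all genes, threshold 0.01 as in the study's methods). The standard error was the absolute log2 fold change over the square root of F, and log2 CPM used a prior count of 2. DESeq2 1.42.0, other scalings, no filter, single libraries left out and a replicate block were alternatives. The scripts were tested on simulated data. The smallest chi-square per gene between 2 libraries was 23.3, so that no library was a copy. Whether the replicates of a genotype are separate mice is not stated for each library, and p-values then measure the spread between these libraries, which may be technical.

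The members, lists and tests were chosen with earlier results of these data known. Besides the 10 genes, the rule named of each list the 2 most abundant tested genes and the one with the largest change, a few defining markers, and the 5 genes nearest to *Lipf*. Genes such as *Cdx2*, *Gast*, *Sox2*, *Barx1*, *Muc5b*, the *Lipf* neighbours other than *Lipa*, *Krt4*, *Krt5*, *Krt6a*, *Dsc3*, *Trp63* and *Krtdap*, also named, were chosen after their values were seen.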

Additional observations from a re-analysis of the deposited data

How the results depend on the processing

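The count of genes past an adjusted p of 0.01 was 0 in edgeR's quasi-likelihood test (2495 genes at an unadjusted p under 0.05). It was 194 with DESeq2's Wald test, 1 without the filter on low counts, 1 at an adjusted p under 0.05, and 0 to 1 with each library left out, the single gene appearing without ApcMin replicate 3. Of the gastric epithelial genes 0 passed, and DESeq2 called 1, *Lipf*, whose difference chose the set, so that nothing is read from the call. With each library left out, the median log2 fold change ranged from -0.71 to 0.12 for the gastric epithelial genes, -0.13 to 0.51 for parietal, chief and gastric endocrine genes, -0.68 to -0.41 for other stomach genes, and -0.53 to -0.35 for chromosomal neighbours. It ranged from 0.71 to 1.15 for squamous, 0.015 to 6.80 for pancreatic, -0.69 to 0.19 for proximal, -0.31 to 0.55 for distal and -0.58 to -0.30 for intestinal epithelium genes. With DESeq2 and without the filter, the squamous median was 1.21 and 1.21, and that of the other stomach genes -0.28 and -0.26, where genes under the filter also enter. The 9 genes other than *Lipf* stayed short of the threshold under each alternative run and kept their direction, except *Gkn1*, *Gkn2* and *Tff2* without Apc1322T replicate 2 and *Ctse* without ApcMin replicate 2. The fold change of *Lipf*, which has no test, moved from 5.40 to 6.08 without Apc1322T replicate 2. Over single libraries left out, *Gkn1* ranged from -0.45 to 0.25, *Gkn2* from -1.38 to 0.55, *Tff2* from -1.64 to 0.74 and *Ctse* from -0.51 to 0.053. The causes were not tested. Depth limits *Lipf* in Apc1322T adenomas, at 4 to 10 counts.

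Same-numbered libraries had correlations of deviations from the genotype means of -0.014, 0.16 and -0.29, so that the numbers did not pair them. With the replicate block, 0 genes passed the threshold and the median of the gastric epithelial genes was -0.43.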
